A study of Mus musculus with 5 samples.

Results

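Integrin subunits were described in SLAMseq libraries of cardiac fibroblasts (CF) from the mouse heart. The 10 genes *Itga1*, *Itga5*, *Itga8*, *Itga9*, *Itga11*, *Itgav*, *Itgb1*, *Itgb3*, *Itgb5* and *Itgb8* were taken by name, 6 of them alpha and 4 beta subunits, out of 20365 gene names in the tables and 26 integrin genes. CF came from healthy adult male C57Bl/6J wildtype mice, were depleted of CD31+ and CD45+ cells and were grown to confluency before use, so the values describe cells on plastic and not cells in the heart. The 3 labeled libraries were incubated for 12 h with 0.1 mM 4-thiouridine (S4U), and the 2 unlabeled libraries for the same time without S4U. RNA of both groups was alkylated, no gene was altered, and there was no infarct or drug treatment in either group. S4U is built into RNA made during the incubation, and after alkylation it is read as C in place of T, so the T>C conversion rate (conversions per T position covered by reads) rises with the newly made part of a transcript.

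Integrins are receptors for the extracellular matrix, built from an alpha and a beta chain that both cross the membrane. The alpha chain largely sets the ligand, and the short tail of the beta chain binds talin and kindlin, which couple the receptor to actin. In fibroblasts, integrins hold the cell to collagen and fibronectin, and those that contain the αv chain can release active TGF-β from its latent complex.

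Each gene was represented by 1 interval of its 3′ UTR, the one with the highest mean deposited CPM in the labeled libraries, and positions are given in GRCm39 and counted from 1. All 10 intervals lay in the 3′ UTR of the last exon, those of *Itga11* and *Itgav* reaching 1 base past it. *Itgb1* (ENSMUSG00000025809.17) was counted on chr8:129458570-129460060 of the plus strand, *Itgb5* (ENSMUSG00000022817.17) on chr16:33769123-33769708 of the plus strand, *Itgav* (ENSMUSG00000027087.13) on chr2:83633680-83637261 of the plus strand and *Itga9* (ENSMUSG00000039115.15) on chr9:118726401-118730071 of the plus strand. *Itga1* (ENSMUSG00000042284.12) was counted on chr13:115094615-115096625 of the minus strand, *Itga8* (ENSMUSG00000026768.12) on chr2:12111443-12113925 of the minus strand, *Itga5* (ENSMUSG00000000555.10) on chr15:103252713-103253695 of the minus strand and *Itga11* (ENSMUSG00000032243.10) on chr9:62689982-62691618 of the plus strand. *Itgb3* (ENSMUSG00000020689.6) was counted on chr11:104557972-104561302 of the plus strand and *Itgb8* (ENSMUSG00000025321.16) on chr12:119121921-119126851 of the minus strand. Only the interval of *Itga9* overlapped another annotated gene, *Gm2415* on the opposite strand.

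Reads of these libraries start near the 3′ end of a transcript, so it matters where an interval stops. A poly(A) signal, AATAAA or ATTAAA, was found in the last 60 bases of 6 of the 10 intervals, and 78.8% of 13793 intervals, 1 per gene with labeled reads, held either hexamer in their last 40 bases. The windows around these signals are shown because such a hexamer lies before the site where a transcript is cut and gains its poly(A) tail, 5′ to 3′ on the transcript strand. Capitals mark the AATAAA nearest the interval's end or, where there is none, the nearest ATTAAA. The tables give no positions of reads within an interval.
Itga5: caagtgcAATAAAccccacccactgc
Itga8: tgtcaccAATAAAattaaaaattaaa
Itga9: agtttagAATAAAacaaaatctggct
Itgav: actgtacAATAAActtgaacgtgtgg
Itgb3: acagagaATTAAAtgtgctttccaaa
Itgb8: tgtatttATTAAAagctgacactgta
Counted back from the last base of the interval as base 1, the marked hexamer began at base 33, 28, 27, 27, 23 and 19, in the order shown. The window of *Itga8* also holds ATTAAA 2 times after the marked hexamer, left in lower case. For *Itga1*, *Itga11*, *Itgb1* and *Itgb5*, neither hexamer was in this window. The interval of *Itga1* stopped 4983 bases before the annotated end of the gene, and each of its 3 annotated transcripts ended farther on. That of *Itgb1* stopped 558 bases before the gene's end, with 16 of 25 annotated transcripts ending farther on and none within 5 bases of the interval's end. The interval of *Itga8* stopped 543 bases short, with 6 of 12 transcripts ending farther on and 0 within 5 bases, and of the 6 transcripts of *Itgb8* 5 ended farther on. The interval of *Itgb5* stopped 1429 bases short of the gene's end, but 18 of its 31 transcripts ended within 5 bases of it. Reads at ends beyond the intervals were not analysed here, so the levels below are those of the interval.

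With 1 interval taken for each gene, the libraries held 506045 to 1843033 reads, the fewest in labeled replicate 3. The integrin subunits took 2197, 2399 and 983 of these reads in the labeled libraries (replicates 1 to 3, the order used throughout) and 2137 and 1602 in the unlabeled ones (replicates 1 and 2). Summed over 9 fibroblast markers, the level was 38377 to 42189.9 CPM in labeled and 31204 to 35036 CPM in unlabeled libraries. The sum over 6 endothelial markers was 115 to 218 and 163 to 238 CPM, over 6 leukocyte markers 54.6 to 99.6 and 59.7 to 104 CPM, and over 6 smooth muscle and pericyte markers 24.1 to 75.1 and 33.6 to 97.4 CPM. Cardiomyocyte markers summed to 7.03 CPM or less and epicardial markers to 7.90 CPM or less in every library, with *Myl2* and *Msln* at 0 throughout. The study describes the labeled libraries as separate CF preparations, but the labels do not say which preparations the unlabeled libraries came from, so the p-values below measure the spread between these libraries, which may be technical. In bulk libraries, fewer cells of a type and less RNA per cell cannot be told apart.

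Among the beta subunits, *Itgb1* and *Itgb5* had much higher levels than *Itgb3* and *Itgb8*. Levels are reads of the interval scaled to the counted reads of the library (CPM). These are 3′ end libraries, in which a transcript gives reads at its end whatever its length, so levels are compared without division by length, and those per kilobase of the interval are given beside them. *Itgb1*, the partner of most alpha subunits on adherent cells, was at 543, 779 and 765 CPM in labeled and at 411 and 570 CPM in unlabeled libraries. *Itgb5*, which pairs with αv in a vitronectin receptor, was at 394, 658 and 703 CPM in labeled and at 276 and 432 CPM in unlabeled libraries. For both, replicate 1 was the lowest library of its group, and the labeled and unlabeled levels overlapped. The mean level of *Itgb1* was 696 ± 132 CPM and that of *Itgb5* 585 ± 167 CPM (SD, n = 3 labeled libraries). *Itgb1* was higher in 3 of 3 labeled libraries, but the ranges of the pair overlapped. Per kilobase of the interval, the order turned, with 467 CPM for *Itgb1* and 998 CPM for *Itgb5*, whose interval of 586 bases is the shortest of the 10. The order also turned with the reads of all intervals of a gene summed, to 478 CPM for *Itgb1*, which has 1 interval, and 1125 CPM for *Itgb5*, which has 3 that overlap and count many reads more than once. Per kilobase, the mean labeled levels of the other members were 64.2 CPM for *Itgav*, 32.8 for *Itga9*, 26 for *Itga5*, 25.2 for *Itga11*, 13.1 for *Itga1*, 6.90 for *Itgb3*, 5.31 for *Itgb8* and 3.25 for *Itga8*.

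*Itgb8*, the αv partner known for activating latent TGF-β, was at 27.3, 33.5 and 17.8 CPM in labeled and 24.4 and 43.2 CPM in unlabeled libraries. *Itgb3*, the beta chain of the αvβ3 vitronectin receptor, was at 16.5, 26.8 and 25.7 CPM in labeled and 10.9 and 22.1 CPM in unlabeled libraries. These levels rested on 9 to 45 reads of *Itgb8* and 13 to 32 reads of *Itgb3* per library, and their ranges overlapped.

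*Itgav* was the most abundant alpha subunit, followed by *Itga9*. *Itgav*, the αv chain shared by the receptors for vitronectin and latent TGF-β, was at 194, 258 and 239 CPM in labeled and at 204 and 238 CPM in unlabeled libraries, a mean of 230 ± 33.0 CPM (SD, n = 3 labeled libraries). *Itga9*, whose ligands include tenascin-C and VCAM1, was at 133, 131 and 96.8 CPM in labeled and at 107 and 101 CPM in unlabeled libraries, with a mean of 120 ± 20.3 CPM (SD, n = 3). The labeled ranges of *Itgb5*, *Itgav*, *Itga9*, *Itga11* and *Itga1* were separate and fell in this order. Per kilobase of the interval, *Itgav* and *Itga9* kept the ranks 3 and 4 among the 10.

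*Itga11* and *Itga1* encode chains of collagen receptors. *Itga11*, the alpha chain of a receptor for fibrillar collagen on fibroblasts, was at 34.3, 41.8 and 47.4 CPM in labeled and at 34.7 and 68.3 CPM in unlabeled libraries. *Itga1*, the other collagen-binding chain among the members, was at 33.0, 20.1 and 25.7 CPM in labeled and at 58.1 and 59.2 CPM in unlabeled libraries. All 3 labeled levels of *Itga1* lay below both unlabeled levels, whereas those of *Itga11* overlapped. The mean of *Itga11* was 41.2 ± 6.61 CPM and that of *Itga1* 26.3 ± 6.47 CPM (SD, n = 3 labeled libraries). *Itga1* with 26.3, *Itgb8* with 26.2, *Itga5* with 25.5 and *Itgb3* with 23.0 CPM had mean levels whose order could not be told, because their ranges overlapped.

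*Itga5* and *Itga8* bind ligands with an RGD sequence, *Itga5* as the alpha chain of the classical fibronectin receptor and *Itga8* as that of a nephronectin receptor. *Itga5* was at 4.44, 54.4 and 17.8 CPM in labeled and at 3.80 and 56.2 CPM in unlabeled libraries. It had 7 reads in replicate 1 of each group against 65 and 56 in replicate 2, so its SD of 25.9 CPM was as large as its mean. *Itga8* was at 15.2, 5.02 and 3.95 CPM in labeled and at 29.3 and 18.1 CPM in unlabeled libraries, and these levels rested on 24, 6 and 2 labeled and 54 and 18 unlabeled reads. Its labeled levels were all below the unlabeled ones.

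**Figure D1:**
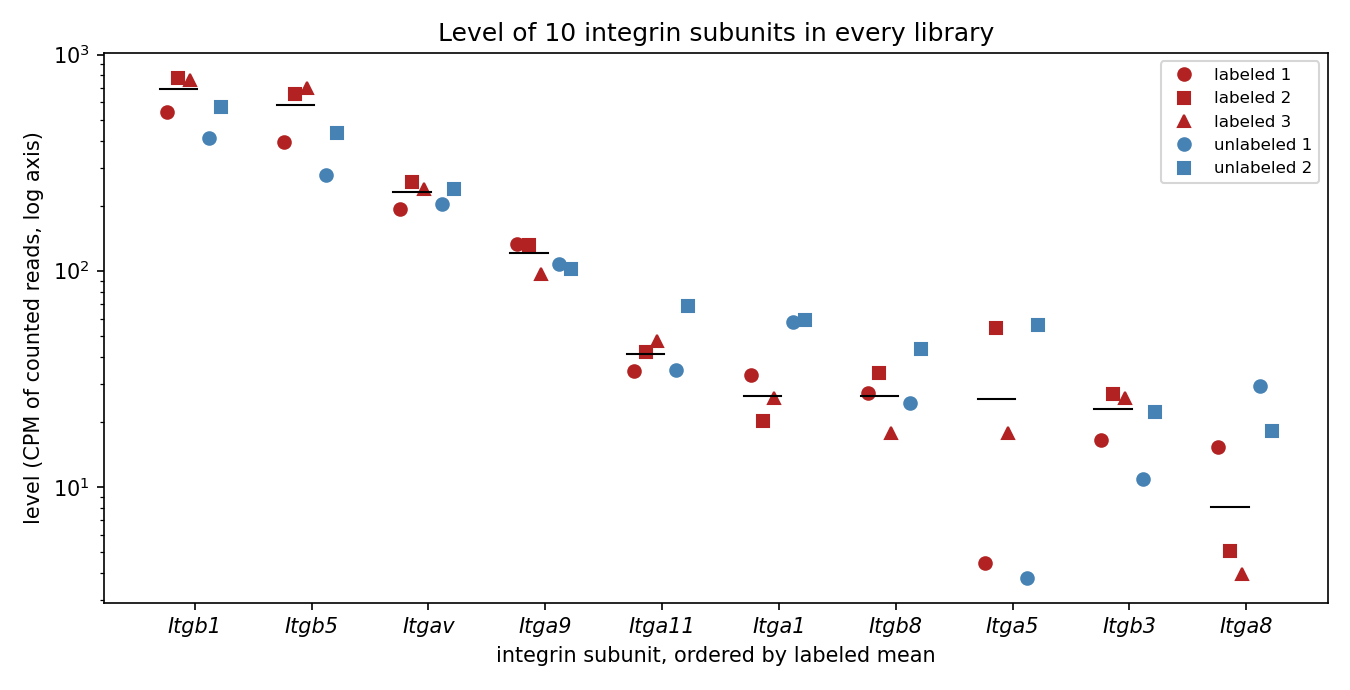
Level of each integrin subunit in every library, in CPM of counted reads on a log axis. Points are libraries, red for labeled and blue for unlabeled, the shape gives the replicate, and the black line is the mean of the 3 labeled libraries. *Itgb1* and *Itgb5* lie highest with means of 696 and 585 CPM, *Itga5* is below 5 CPM in replicate 1 of both groups, and *Itga1* and *Itga8* have each labeled point below both unlabeled points.

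The levels of *Itga5* differed between replicates, and the ratio of replicates 1 and 2 also varied with GC content across genes. The GC content of the interval was 55.1% for *Itga5*, above 92.8% of the intervals with labeled reads. Over the decile of the 9807 genes tested with the highest GC content, the median log2 ratio of replicate 1 to replicate 2 was -0.62 in the labeled and -0.47 in the unlabeled libraries, and over the decile with the lowest GC content it was 0.42 and 0.40. For labeled replicate 3 against 2, the medians of the deciles stayed between -0.05 and 0.06. *Itga5* stood at -3.38 and -3.66 on this scale, log2(CPM + 1) with TMM factors, far below the median of its decile, and at -1.50 for labeled replicate 3 against 2. *Itgb5*, at 52.0% GC, stood at -0.77 and -0.74, and *Itgb3*, at 49.4%, at -0.70 and -1.05. *Itga8*, at 36.9% GC, was higher in replicate 1, at 1.41 and 0.57. *Itgb1*, *Itgav* and *Itgb8* had 34.5% to 38.9% GC but were lower in replicate 1 of both groups, against the medians of their deciles. The part of GC content in the levels of the members was not tested.

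**Figure D2:**
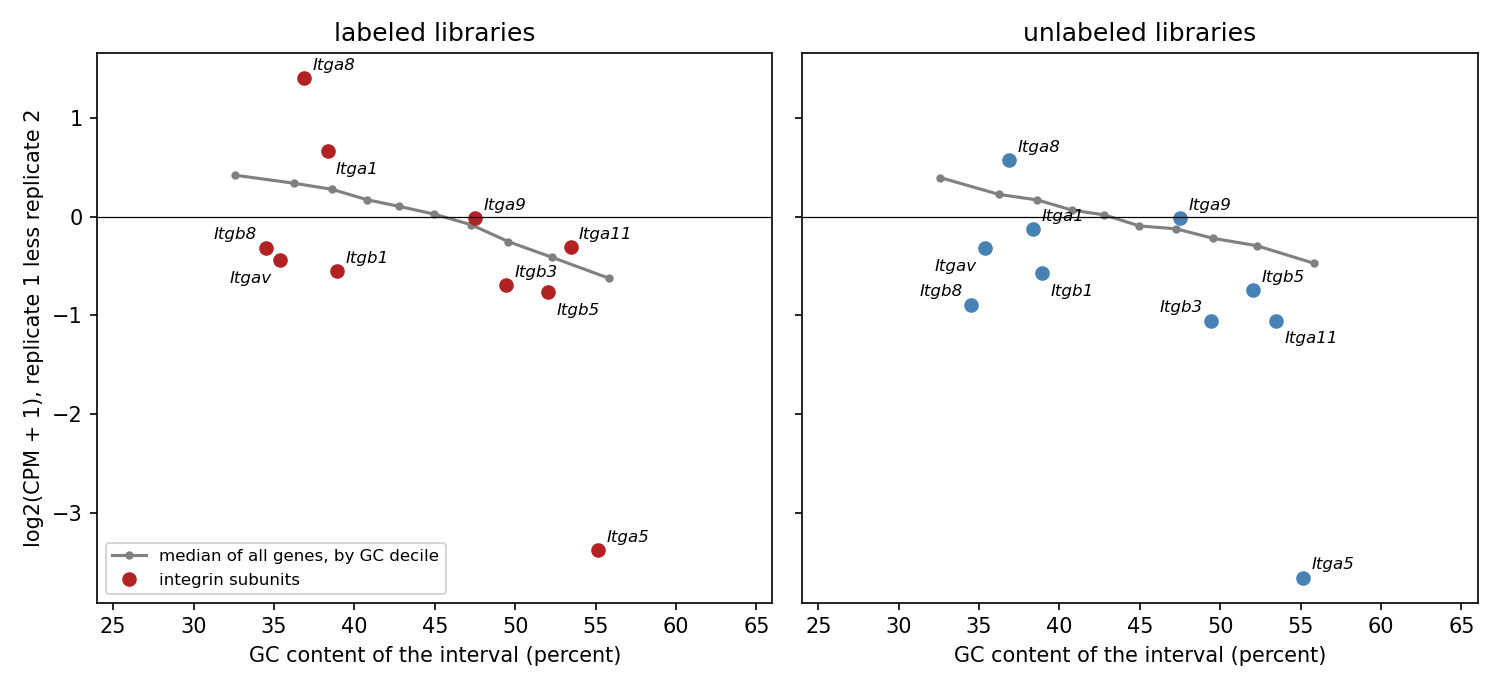
Difference of log2(CPM + 1) between replicates 1 and 2 of a group (vertical axis) against the GC content of the interval in percent (horizontal axis), for labeled (left) and unlabeled (right) libraries. Coloured points are the 10 integrin subunits, and the grey line joins the medians of all tested genes in deciles of GC content, which fall from 0.42 to -0.62 and from 0.40 to -0.47. *Itga5* lies below -3 in both panels.

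Shares of the reads of a chain do not depend on how libraries are scaled, but they do depend on how the intervals of a gene are counted. The 18 alpha subunits had 753, 673 and 243 reads in labeled and 983 and 639 in unlabeled libraries, and the 8 beta subunits had 1566, 1812, 776, 1358 and 1083 in the same order. *Itgb1* and *Itgb5* together made up nearly all beta reads. *Itgb1* took 54.7%, 51.4% and 49.9% in the labeled libraries and 55.7% and 52.4% in the unlabeled ones, and *Itgb5* took 39.7%, 43.4% and 45.9% and 37.5% and 39.7%. With the overlapping intervals of a gene summed, the mean labeled shares were 29.0% for *Itgb1* and 66.5% for *Itgb5*, and per kilobase they were 31.2% and 65.4%. Beta subunits other than the 4 members took 1.28%, 1.27% and 1.42% in labeled and 1.99% and 1.85% in unlabeled libraries. Their mean labeled share was 1.32 ± 0.0834% of beta reads (SD, n = 3 labeled libraries). *Itgb8* took 2.75%, 2.21% and 1.16% in labeled and 3.31% and 3.97% in unlabeled libraries. For neither did the labeled and unlabeled shares overlap.

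*Itgav* made up 40.5%, 45.8% and 49.8% of alpha reads in labeled and 38.3% and 37.1% in unlabeled libraries, so every labeled share was above both unlabeled ones. Its mean labeled share was 55.4% with intervals summed and 30.5% per kilobase. With 753 alpha reads, the first of these shares had a Wilson 95% interval of 37.1% to 44.1%, and with 243 reads the third had one of 43.6% to 56.0%, counting error only. *Itga9* took 27.8%, 23.3% and 20.2% in labeled and 20.1% and 15.8% in unlabeled libraries, also without overlap, though the lowest labeled share and the higher unlabeled share were nearly equal. Its mean labeled share of 23.7% was 14.5% with intervals summed and 15.7% per kilobase. *Itga1* was the reverse, at 6.91%, 3.57% and 5.35% in labeled and 10.9% and 9.23% in unlabeled libraries, and its mean labeled share of 5.27% was 3.22% with intervals summed. The collagen-binding chains *Itga1* and *Itga11* together took 14.1%, 11.0% and 15.2% in labeled and 17.4% and 19.9% in unlabeled libraries. The RGD-binding chains *Itga5*, *Itga8* and *Itgav* together took 44.6%, 56.3% and 54.3% and 44.5% and 48.7%, which overlapped. *Itga8* alone took 3.19%, 0.89% and 0.82% in labeled and 5.49% and 2.82% in unlabeled libraries, which also overlapped. Alpha subunits outside the members took 13.5%, 9.36% and 10.3% in labeled and 18.0% and 15.6% in unlabeled libraries, without overlap. Beta reads were 67.5%, 72.9% and 76.2% of all integrin reads in labeled and 58.0% and 62.9% in unlabeled libraries, a difference of 11.7 percentage points. An exact permutation test of 3 against 2 libraries, two-sided with the smaller tail doubled, cannot go below p = 0.2, which these shares without overlap reached. Over the 15 shares compared, the smallest adjusted p was 0.375 (exact permutation test, two-sided, Benjamini-Hochberg).

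**Figure D3:**
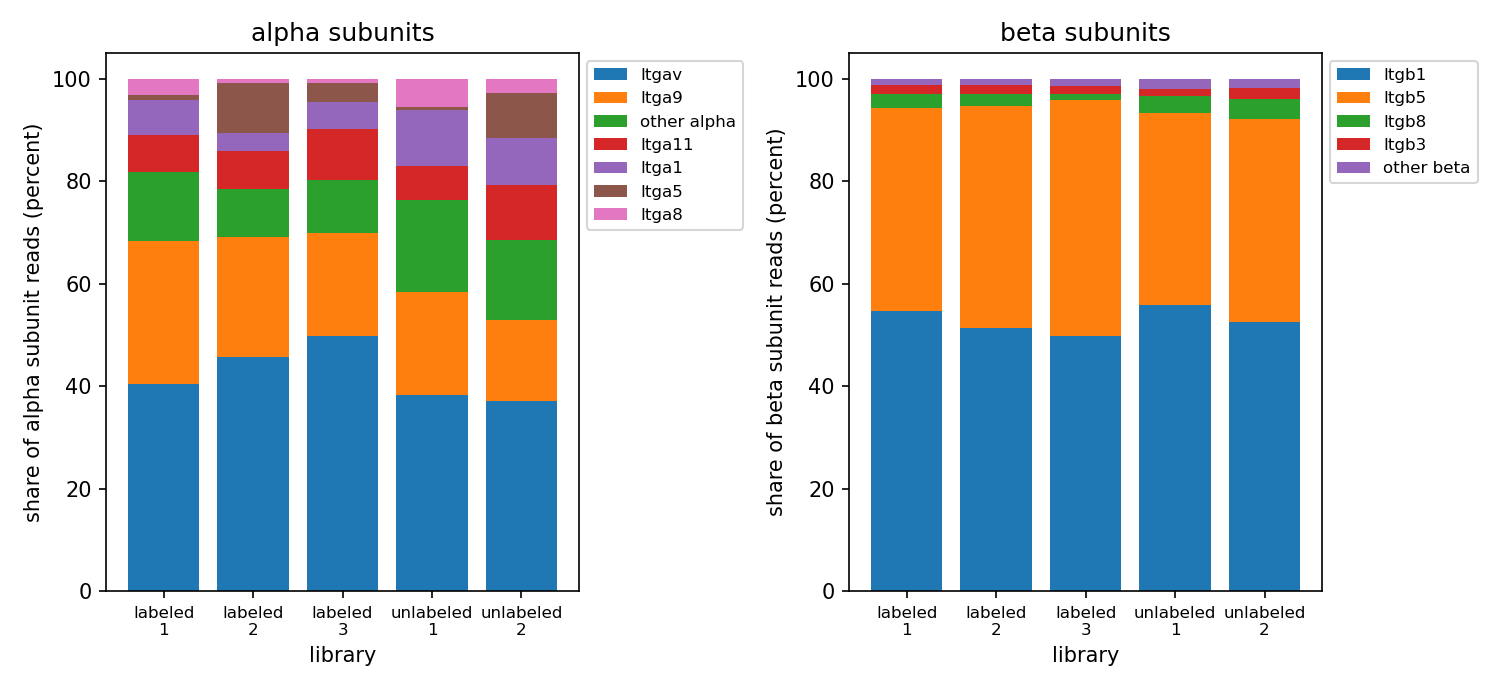
Stacked shares, in percent, of alpha subunit reads (left) and beta subunit reads (right) in every library, each bar summing to 100. The members are shown singly and the remaining subunits of the chain as 1 block. *Itgav* takes 40.5% to 49.8% of alpha reads in labeled libraries, and *Itgb1* and *Itgb5* fill nearly the whole of each beta bar.

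The first comparison the design allows is that of labeled with unlabeled T>C conversion rates, which shows whether new transcript of a gene was made within the labeling time. All 10 integrin subunits had a raised T>C conversion rate (beta-binomial likelihood-ratio test over 19240 intervals, Benjamini-Hochberg adjusted p from 4.88e-06 for *Itgb5* to 0.002 for *Itga5*). The same rule called 94.5% of all intervals and 95% of those used for genes, so the share of the members called is close to the background. For every member, each labeled rate was above both unlabeled rates. How often this held over all intervals was not counted, so nothing particular to the members can be read from it. Without unlabeled replicate 2, *Itga5* was no longer called, with an adjusted p of 0.081 in the same beta-binomial test, and 9 of 10 were.

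The labeled rates of the members spread from a mean of 0.0226 for *Itga8* to one of 0.0437 for *Itga9*. The mean of *Itga8* was 0.0126 without labeled replicate 3, where it had 2 conversions of 47 covered T positions, and its rate over pooled libraries was 0.0140. Only *Itga9*, *Itgb5*, *Itgav* and *Itgb1* reached 1000 covered T positions throughout, and their order can be read with the least error. *Itga9* had a T>C rate of 0.0429, 0.0413 and 0.0467 in the labeled libraries, from 166, 128 and 55 conversions, and 0.000486 and 0.000466 in the unlabeled libraries. *Itgb5* had 0.0342, 0.0354 and 0.0348, from 435, 612 and 289 conversions, with 0.000773 and 0.000419 unlabeled. These labeled rates of *Itgb5* were the closest together among the 10 members, with an SD of 0.00063.

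*Itgav* had 0.0297, 0.0366 and 0.0350, from 168, 269 and 95 conversions, with 1 conversion of 7300 covered T positions in unlabeled replicate 1. In unlabeled replicate 2 it had 0 of 5865, which allows a rate of up to 0.000512. *Itgb1* had 0.0253, 0.0289 and 0.0289, from 406, 668 and 292 conversions, with 0.000934 and 0.000552 unlabeled. The mean of *Itga9* was 0.0437 ± 0.00278 and that of *Itgb1* 0.0277 ± 0.00209 (SD, n = 3 labeled libraries), with *Itgb5* at 0.0348 ± 0.00063 and *Itgav* at 0.0338 ± 0.00362 between them. *Itga9* was above the other 3 and *Itgb1* below them in 3 of 3 labeled libraries, without overlap of their ranges, while *Itgb5* was above *Itgav* in 1 of 3. A paired exact test over 3 libraries cannot reach the usual threshold, so the order is given as a description.

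Across the 2107 genes covered as deeply, the median rate was 0.0388, with quartiles at 0.0343 and 0.0422. *Itga9* was above 83.5% of these genes, *Itgb5* above 26.9%, *Itgav* above 23.3% and *Itgb1* above 13.7%. Thus 3 of the 4 deeply covered members were below the median. Counted by reads, 51.2%, 52.2% and 67.3% of the reads of *Itga9* carried a conversion in the labeled libraries, against 45.6%, 50.6% and 51.4% for *Itgb5*, 38.4%, 50.0% and 47.9% for *Itgav* and 32.0%, 37.4% and 37.2% for *Itgb1*. In both measures, *Itga9* was the highest and *Itgb1* the lowest of the 4.

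The other 6 members rested on fewer T positions. *Itgb3* had a labeled rate of 0.0313 ± 0.000767, *Itga11* of 0.0314 ± 0.00587, *Itga1* of 0.0258 ± 0.00312 and *Itgb8* of 0.0384 ± 0.0126 (SD, n = 3 labeled libraries). The rates of *Itgb8* were 0.0251, 0.0398 and 0.0503, the highest of these from 10 conversions of 199 covered T positions, with a Wilson 95% interval of 0.0275 to 0.0900. *Itga5* was at 0.0536, 0.0276 and 0.00926 from 3, 23 and 1 conversions, and *Itga8* at 0.0109, 0.0143 and 0.0426 from 5, 2 and 2 conversions. The ranges of neighbours in the order of these 6 means overlapped, while the rates of *Itgb3*, 0.0307 to 0.0321, were above those of *Itga1*, 0.0222 to 0.0281. On the covered T positions, no conversion was counted in either unlabeled library for *Itga1*, *Itga5*, *Itga8* and *Itgb3*, although 1 of the 22 reads of *Itgb3* in unlabeled replicate 2 is listed as carrying one. For *Itga1*, 0 of 1773 and 0 of 1081 covered T positions allow a rate of up to 0.00169 and 0.00278, but for *Itga5* 0 of 60 in unlabeled replicate 1 allows up to 0.05.

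**Figure D4:**
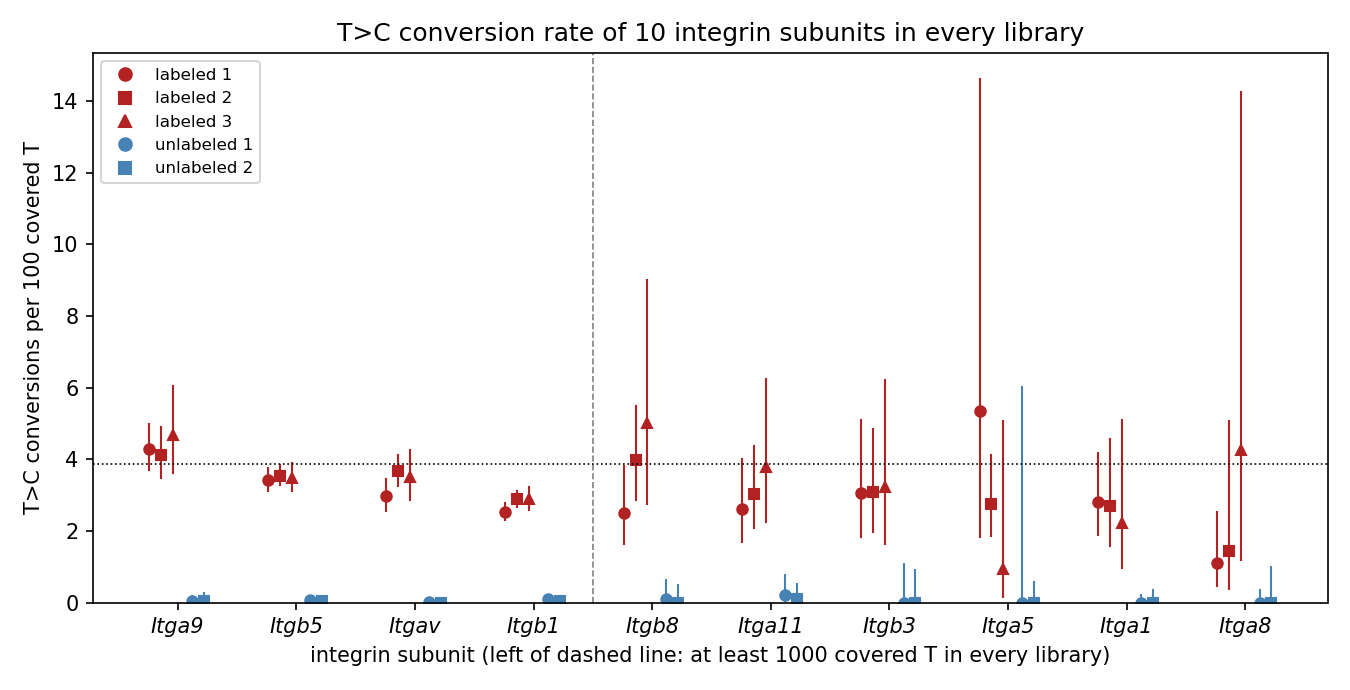
T>C conversions per 100 covered T positions for each integrin subunit in every library, with Wilson 95% intervals as vertical lines. Red is labeled, blue is unlabeled, the shape gives the replicate, and the dotted line is the median of 2107 deeply covered genes at a rate of 0.0388. Left of the dashed line, *Itga9* lies above and *Itgb1* below the other deeply covered members, and right of it the intervals are wide.

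The intervals differed in sequence elements known for transcript stability, which are given as letter matches on the transcript strand only. The pentamer ATTTA, the core of AU-rich elements, occurred 19 times in the intervals of *Itgav* and *Itgb8*, 12 times in *Itga8*, 9 in *Itga1*, 6 in *Itga9*, 4 in *Itga11*, 2 in each of *Itga5*, *Itgb1* and *Itgb3*, and once in *Itgb5*. Among intervals within 10% of the same length, the count of *Itgav* was above 98.6% of 720 and that of *Itga9* above 44.8% of 689. The counts of *Itga8*, *Itgb8* and *Itga1* were above 96.6%, 94.9% and 94.7%, and those of the rest above 9.52% for *Itgb3* to 65.0% for *Itga11*. These intervals were matched by length and not by base composition. The nonamer TTATTTATT, which holds ATTTA, was found in *Itgb1* only, and 5.76% of 972 intervals of its length held it. It is shown with the nonamer in capitals, at chr8:129459644-129459652, because no other member held it.
Itgb1: aactgaagTTATTTATTaaaataaa
The octamer TGTANATA, the letters bound by Pumilio proteins, occurred in *Itga9* and *Itga8* once each and in *Itgav* and *Itgb8* 2 times each, and 51.8% of the intervals of the length of *Itga9* held it. It is shown for the deeply covered members that hold it, in capitals.
Itga9: gacttgggTGTAAATAatttattg
Itgav: ttgttcagTGTACATAagacagac
Itgav: gctgtagtTGTAGATAtataggtg
A match of letters is not a bound site, and with 4 genes nothing about the rates can be read from it.

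The second comparison is that of the reads themselves, which shows whether the incubation with S4U went with a change in transcript level. No integrin subunit passed the test, and neither did any other gene (edgeR's quasi-likelihood test, Benjamini-Hochberg adjusted, 0% of 9807 genes called). At an unadjusted p below 0.05 the same test gave 306 genes lower and 279 higher in labeled libraries, which is 3.12% and 2.84%, and of the members it gave *Itga1* only. DESeq2 called 10 genes higher and 4 lower, with no integrin subunit among them.

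*Itga1* had the difference that was largest relative to its error, a log2 fold change of -1.08 ± 0.32 (SE, n = 3 labeled and 2 unlabeled libraries, edgeR unadjusted p = 0.0121, adjusted p = 0.685). Its interval stopped 4983 bases before the annotated end of the gene, so this value is that of the interval. *Itga8* had -1.36 ± 0.58 (edgeR adjusted p = 0.842). These are the members whose labeled levels were all below the unlabeled ones, as was so for 13.1% of all genes tested, and none of the members lay wholly above, as did 8.2% of genes. Because the groups of both did not overlap, leaving out 1 library could hardly turn their direction, and nothing is drawn from that check. The sum of endothelial markers was 115 to 218 CPM in labeled and 163 to 238 CPM in unlabeled libraries, and all 6 had a negative log2 fold change, none past the test. Their part in the values of *Itga1* and *Itga8* was not tested.

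*Itgb5* had a log2 fold change of 0.80 ± 0.38 and *Itgb1* of 0.58 ± 0.31 (SE, edgeR adjusted p = 0.892 and 0.936), and the labeled and unlabeled levels of both overlapped. The remaining members lay between -0.26 for *Itga11* and 0.56 for *Itgb3*. *Itga5* had -0.11 ± 1.21, an error that covers a change in either direction. Over the 10 members, 5 values were positive and 5 negative, with a median of 0.01, and over all 9807 genes the median was 0.02.

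**Figure D5:**
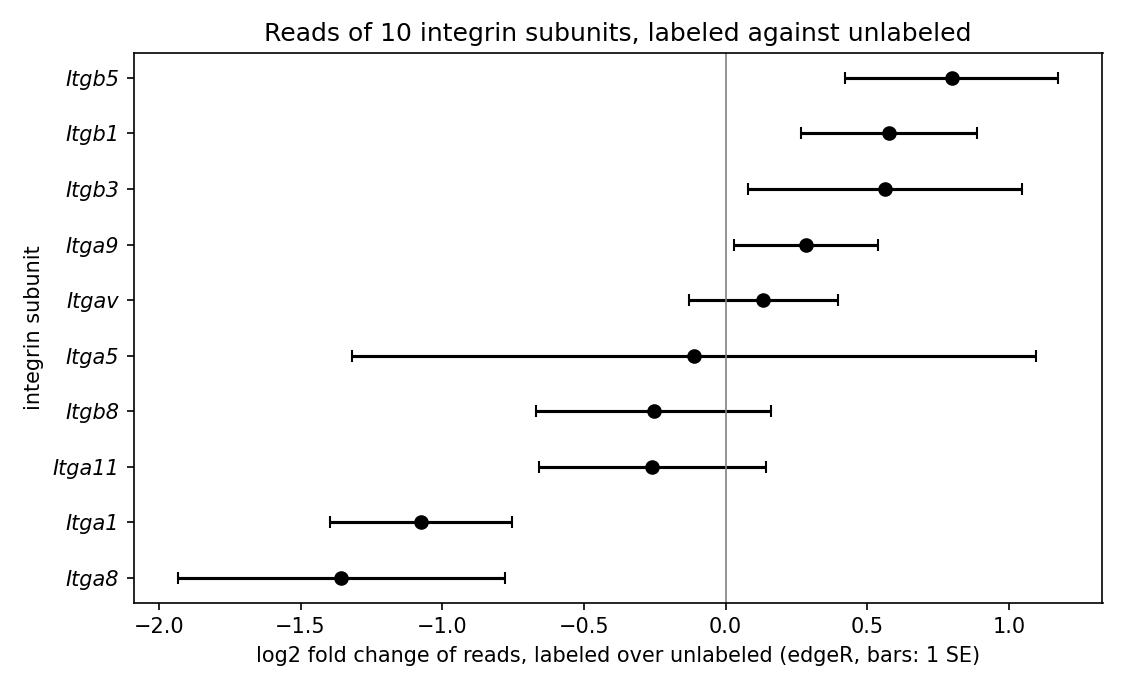
Log2 fold change of reads, labeled over unlabeled libraries, for each integrin subunit with bars of 1 SE (edgeR, 3 labeled and 2 unlabeled libraries). *Itga1* at -1.08 and *Itga8* at -1.36 lie farthest to the left and *Itgb5* at 0.80 farthest to the right, and none passes the test across 9807 genes.

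Of the 16 other integrin subunits, 4 had no read in any library, *Itga10*, *Itgad*, *Itgae* and *Itgb7*, and only *Itgb2* had at least 10 reads in every library. *Itgb2*, the beta chain of leukocyte integrins, was at 12.1, 14.2 and 21.7 CPM in labeled and 13.6 and 16.1 CPM in unlabeled libraries. *Itga6*, the alpha chain of a laminin receptor, named after its values were seen, was at 34.9, 28.5 and 11.9 CPM in labeled and 54.3 and 46.2 CPM in unlabeled libraries, which did not overlap, with a log2 fold change of -0.87 ± 0.41 (edgeR adjusted p = 0.892). Of the 5 tested of these 16, 2 lay wholly below, against 13.1% of all genes tested, and none was called. Summed over the 16, the level was 71.1 to 77.4 CPM in labeled and 111 to 120 CPM in unlabeled libraries.

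The adaptors and kinases that link integrins to actin had reads in at least 1 library for 26 of 27 genes, and 24 could be tested. *Fermt1* had no read in any library. None passed the test of reads (edgeR, 0 also at an unadjusted p below 0.05), with 2 wholly above and 2 wholly below, against 8.2% and 13.1% of all genes tested, and a median log2 fold change of 0.00. The highest mean levels were 1634 ± 373 CPM for *Actn1*, 878 ± 195 CPM for *Tns1* and 808 ± 194 CPM for *Actn4* (SD, n = 3 labeled libraries), which encode alpha-actinins and a tensin of focal adhesions. For the 11 of them that reached 1000 covered T positions throughout, the median T>C rate was 0.0430, from 0.0338 for *Parva* to 0.0479 for *Lims1*, both of the complex around integrin-linked kinase, against a median of 0.0343 over the 4 members.

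The matrix ligands of integrins include abundant collagens, of which *Col1a1*, *Col1a2* and *Col3a1* are fibroblast markers as well. *Col1a1* was at 13036 ± 270 CPM, *Col1a2* at 11048 ± 1716 CPM and *Col3a1* at 8336 ± 791 CPM (SD, n = 3 labeled libraries), far above any of their receptors. The 11 deeply covered ligands had a median T>C rate of 0.0249, from 0.0151 for *Col3a1* to 0.0540 for *Thbs1*, which encodes thrombospondin 1. None of the 15 ligands tested passed the test of reads, but at an unadjusted p below 0.05 edgeR gave 6 higher and 1 lower, against 2.84% and 3.12% of all genes tested, and 6 lay wholly above and 2 wholly below the unlabeled libraries, against 8.2% and 13.1%. Their median log2 fold change was 0.51. The list was chosen with earlier results of these data known, so these counts are no test of the ligands against all genes. The 6 higher were *Npnt*, *Tnc*, *Thbs1*, *Spp1*, *Ltbp1* and *Col1a1*. The last 4 of these had log2 fold changes of 1.64 ± 0.26, 0.92 ± 0.28, 0.82 ± 0.30 and 0.57 ± 0.23 (SE, edgeR). *Npnt* and *Tnc* were picked for closer description after their values were seen. *Npnt*, the nephronectin bound by the alpha chain of *Itga8*, was at 45.0, 46.0 and 27.7 CPM in labeled and 4.34 and 5.02 CPM in unlabeled libraries, with a log2 fold change of 3.17 ± 0.43 (edgeR adjusted p = 0.433). *Tnc*, the tenascin-C bound by that of *Itga9*, was at 369, 455 and 694 against 107 and 111 CPM, with a log2 fold change of 2.29 ± 0.37 (edgeR adjusted p = 0.433). The 1 lower was *Vcam1*, another ligand of the alpha chain of *Itga9*, at 413, 376 and 433 CPM in labeled and 712 and 654 CPM in unlabeled libraries, with a log2 fold change of -0.67 ± 0.23 (edgeR unadjusted p = 0.0217, adjusted p = 0.731).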

How the data were processed

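Per the labels and the study's methods, RNA was alkylated with iodoacetamide and 3′ end libraries with UMI were made. The authors extracted UMI, used SLAM-DUNK 0.4.3 for mapping to mm39 and UMI-tools for removing duplicates, and deposited read counts and counts of covered T positions and of conversions for each 3′ UTR interval. The deposited conversion rate is a fraction, conversions over covered T positions. The deposited CPM divides the reads by 10975173 to 14616278 per library, 7.58 to 28.9 times the reads counted on 1 interval per gene, so levels here are CPM of counted reads.

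The 97442 rows of a table held 40428 distinct intervals, and repeated rows were used once. Of these, 40380 of 40380 on reference chromosomes had the T content of GRCm39, and gene positions came from GENCODE vM39. The interval of a gene was that with the highest mean deposited CPM in the labeled libraries, ties going to the longer. The members, gene lists and markers were chosen with earlier results of these data known. Named were all members, other subunits with at least 10 reads in every library and, of the adaptors and ligands, the 3 highest by level, the highest and lowest T>C rate and those past the test of reads. *Itga6*, *Npnt*, *Tnc*, *Spp1*, *Ltbp1* and *Vcam1* were named outside this rule, after their values were seen. Other subunits and adaptors without a read in any library were also named.

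T>C rates were tested with a two-sided likelihood-ratio test of a beta-binomial model in which both groups share 1 overdispersion, and reads with edgeR's quasi-likelihood test (TMM, filterByExpr), both adjusted by Benjamini-Hochberg over all features tested. Each test was run first on simulated data. DESeq2, limma on log odds (pseudocount 0.5), other size factors, filters and depth limits, a replicate block and each library left out were alternatives. Limits for a count of 0 are 3 conversions over the covered T positions, and these and the Wilson 95% intervals cover counting error only. Libraries of a group differed beyond sampling noise, the chi-square divided by its degrees of freedom being 2.04 to 16.6, so none was counted as a copy. The versions were edgeR 4.0.16, DESeq2 1.42.0 and limma 3.58.1 under R 4.3.3, and scipy 1.17.1, numba 0.67.0, pandas 2.3.3, numpy 2.4.6 and matplotlib 3.10.9 under Python 3.11.15.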

Additional observations from a re-analysis of the deposited data

How the results depend on the processing

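The count of members with a raised T>C conversion rate was 10 with an unadjusted p, with 1 interval per gene, with reads in place of T positions, with limma on the log odds and with both libraries numbered 1 left out, and 9 to 10 with each library left out in turn. It was 8 of the 8 members that reached 100 covered T positions throughout and 4 of the 4 that reached 1000, where fewer members were tested. For reads, no member was called under 13 alternatives fitted with edgeR or DESeq2, of which that with at least 10 reads in every library tested only 7 members, and 1 was with both libraries numbered 1 left out, a choice made after the GC pattern was seen (*Itga1*, -1.39). There the lone unlabeled library is assumed to vary like the labeled ones, so nothing is supported with this call. With the replicate block, edgeR called 4 members, *Itga1* at -1.04, *Itga8* at -1.13, *Itgb1* at 0.48 and *Itgb5* at 0.61, and 528 genes higher and 618 lower in all. This fit leaves 1 residual degree of freedom. The sources used do not say that a number marks a shared preparation, and the deviations of same-numbered libraries from their group means correlated at 0.784 and 0.638 over genes, but with 2 unlabeled libraries these deviations mirror each other, and labeled replicate 3 correlated at 0.482 with unlabeled replicate 2. The log2 fold change of *Itga5* turned to 0.022 with the block and went from -1.54 to 2.86 with each library left out, of *Itga11* from -0.72 to 0.35, of *Itgav* from -0.020 to 0.30 and of *Itgb8* from -0.66 to 0.25. Without a turn in sign, *Itgb3* went from 0.061 to 1.18, *Itgb5* from 0.47 to 1.21, *Itgb1* from 0.32 to 0.89 and *Itga8* from -2.25 to -1.0. With the deposited CPM denominator as library size, the median of all genes moved to -0.43, and *Itga9* at -0.10 and *Itgav* at -0.36 turned negative but stayed above it. The causes were not tested. Depth limits *Itga5*, *Itga8*, *Itgb3*, *Itgb8*, *Itga1* and *Itga11*, whose rates rest on fewer than 1000 covered T positions in at least 1 library.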
